A study of Homo sapiens with 10 samples.

Results

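YAP1, WWTR1 (the gene of TAZ), TEAD1, ANKRD1, AMOTL1, AMOTL2, LATS2, CCN1 (older name CYR61) and CCN2 (older name CTGF) are genes of the YAP/TAZ and TEAD transcription programme of the Hippo pathway. They were chosen by symbol, with earlier results of these data known, and all 9 were among the 28380 genes of the count table. The study measured mRNA by sequencing in RPE-1 cells, an established line of human retinal pigment epithelial cells immortalized with telomerase. The control group was 5 replicates given the vehicle DMSO and the treated group was 5 replicates given 25 µM sulforaphane (SFN), an electrophilic isothiocyanate from broccoli, both for 4 h in complete DMEM. All libraries came from this single line, and nothing in the labels says that the replicates were separate cultures, so the p-values measure the spread between these samples.

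YAP and TAZ are coactivators that carry no DNA-binding domain of their own and act on genes mainly through the TEAD transcription factors. In the Hippo pathway the kinases MST1 and MST2 (genes STK4 and STK3), with SAV1, activate LATS1 and LATS2, which phosphorylate YAP and TAZ and so keep them in the cytoplasm or mark them for degradation. Angiomotins bind YAP and hold it at junctions or on actin. ANKRD1, CCN1 and CCN2 are widely used readouts of YAP/TAZ and TEAD activity, and LATS2 and AMOTL2 are targets that in turn restrain YAP and TAZ.

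The DMSO libraries held 15689294 to 20666692 counts (median 16699666), and the SFN libraries held 12375860 to 17308706 (median 14408929). Levels are given in CPM, the counts of a gene per 1000000 counts of the library after TMM scaling. The groups were compared over 13378 genes with the quasi-likelihood test of edgeR, with Benjamini-Hochberg adjusted p-values and a threshold of 0.05, and SE stands for the standard error. DMSO replicate 1 stood apart from the other libraries: its mean Spearman correlation with the other DMSO libraries was 0.935, against 0.979 to 0.982 for the others, across genes that are not independent replicates. Results that rest on it are therefore also given without it. Of 12 RPE markers 11 were in the table, with RPE65, RLBP1 and TYRP1 at 4 counts or fewer in every library. Of the 5 RPE markers tested, 2 fell without overlap between the groups, MITF from 50.8 to 23.4 CPM and OTX2 from 14.0 to 9.01 CPM, and none rose. Over all tested genes 13.9% were lower, and in 11.1% SFN lay below DMSO without overlap. Without DMSO replicate 1, 1 of the 5 was higher and 2 were lower, when 46.1% of all genes were past the threshold. BEST1 had means of 18.8 and 42.4 CPM and was not past the threshold. The part of these markers in the results was not tested. The summed level of the RPE markers ranged from 63.6 to 105 CPM in DMSO and from 56.6 to 137 CPM in SFN. Of 5 epithelial markers KRT8 and KRT18 passed the low-count filter, and the 4 in the table summed to 490 to 772 CPM in DMSO and 511 to 856 CPM in SFN. The 8 fibroblast and mesenchymal markers summed to 5458 to 6136 CPM in DMSO and 5783 to 8586 CPM in SFN. Nearly all of this was VIM, with means of 5688 CPM in DMSO and 6631 CPM in SFN. COL1A1 had means of 15.2 and 11.3 CPM and PDGFRB of 10.7 and 8.53 CPM, and the rest had means under 1 CPM. Of the 3 fibroblast and mesenchymal markers tested, 0 rose or fell, beside 23.0% of all tested genes past the threshold. Without DMSO replicate 1, 4 of these markers were tested and 3 were lower, when 46.1% of all genes were past it. Of 8 leukocyte and endothelial markers, 7 summed to at most 1.87 CPM.

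The promoters of CCN2, ANKRD1, YAP1 and AMOTL2 are shown because they hold GGAATG, the core motif that TEAD factors bind. Each is the 250 bases before a transcription start in RefSeq (GRCh38.p14), written 5′ to 3′ on the gene's strand, with GGAATG, or CATTCC where it lies on the other strand, in capitals. The CCN2 sequence is chr6:131951373-131951622 (minus strand), that of ANKRD1 is chr10:90921088-90921337 (minus strand), that of YAP1 is chr11:102110197-102110446 (plus strand) and that of AMOTL2 is chr3:134374448-134374697 (minus strand).
CCN2: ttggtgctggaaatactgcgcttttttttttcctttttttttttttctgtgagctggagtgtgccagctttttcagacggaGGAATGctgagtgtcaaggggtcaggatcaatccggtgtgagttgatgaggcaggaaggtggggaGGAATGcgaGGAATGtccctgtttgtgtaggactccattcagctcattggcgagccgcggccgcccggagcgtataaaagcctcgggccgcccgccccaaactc
ANKRD1: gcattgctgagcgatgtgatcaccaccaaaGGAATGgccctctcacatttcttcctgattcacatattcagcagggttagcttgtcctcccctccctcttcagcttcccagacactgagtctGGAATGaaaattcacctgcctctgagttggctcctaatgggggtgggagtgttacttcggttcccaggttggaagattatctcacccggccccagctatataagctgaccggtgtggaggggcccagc
YAP1: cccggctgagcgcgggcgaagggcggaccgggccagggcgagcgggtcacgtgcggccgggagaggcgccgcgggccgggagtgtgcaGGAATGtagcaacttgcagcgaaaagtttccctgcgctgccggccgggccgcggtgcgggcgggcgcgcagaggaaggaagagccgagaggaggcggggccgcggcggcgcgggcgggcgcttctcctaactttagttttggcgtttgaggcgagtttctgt
AMOTL2: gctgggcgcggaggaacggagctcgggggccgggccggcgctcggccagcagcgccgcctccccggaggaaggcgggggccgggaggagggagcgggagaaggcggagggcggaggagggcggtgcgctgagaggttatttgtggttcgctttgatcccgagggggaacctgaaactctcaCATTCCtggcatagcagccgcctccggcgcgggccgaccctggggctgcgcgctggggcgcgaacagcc

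The CCN2 window held 3 matches, which began 169, 104 and 95 bases before the start. The ANKRD1 window held 2, at 220 and 128 bases. YAP1 had 1 match at 162 bases and AMOTL2 had 1, on the other strand, at 69 bases. This AMOTL2 window lies before a start inside the gene, and the other AMOTL2 window searched, chr3:134375418-134375667, held none. Of 35116 RefSeq promoters of this length, 11.9% held the motif on either strand, 0.94% held it at least 2 times and 0.0826% at least 3 times. The windows searched for LATS2, AMOTL1 and WWTR1 held none, which says only that these letters are not in those 250 bases, and TEAD1 and CCN1 were not searched. The windows of AMOTL1 (chr11:94768106-94768355) and WWTR1 (chr3:149703274-149703523 and chr3:149658026-149658275) lie before starts inside these genes. The bases before the outermost start of AMOTL1 and of WWTR1 were not searched. A motif for AP-1, TGANTCA, lay 195 bases before the ANKRD1 start and was in 6.57% of all promoters. The core of the antioxidant response element, TGACNNNGC, the element that the SFN-responsive factor NRF2 binds, lay 12 bases before the LATS2 start and was in 10.9% of all promoters. The heat shock motif GAANNTTC lay 123 bases before the ANKRD1 start and was in 11.6% of all promoters. These matches describe the sequence and are not mapped binding sites.

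Of the 9 genes, LATS2 and CCN1 rose and ANKRD1 fell after SFN. This count of 3 of 9 stands beside 23.0% of all tested genes (9.07% higher and 13.9% lower in SFN). In these 3 the DMSO and SFN libraries did not overlap, which held for 19.9% of all tested genes (8.78% with SFN above and 11.1% with SFN below). ANKRD1 fell to 1.59 times below its DMSO level, CCN1 rose to 1.33 times its DMSO level, and LATS2 rose to 1.79 times its DMSO level. CCN2, the remaining readout gene, had a log2 fold change of 0.21 that was not past the threshold. Without DMSO replicate 1, 4 of the 9 were past the threshold, CCN2 being added as higher, but 46.1% of all genes were then past it. Also 4 of the 9 had no overlap without that library, beside 36.2% of all genes.

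**Figure D1:**
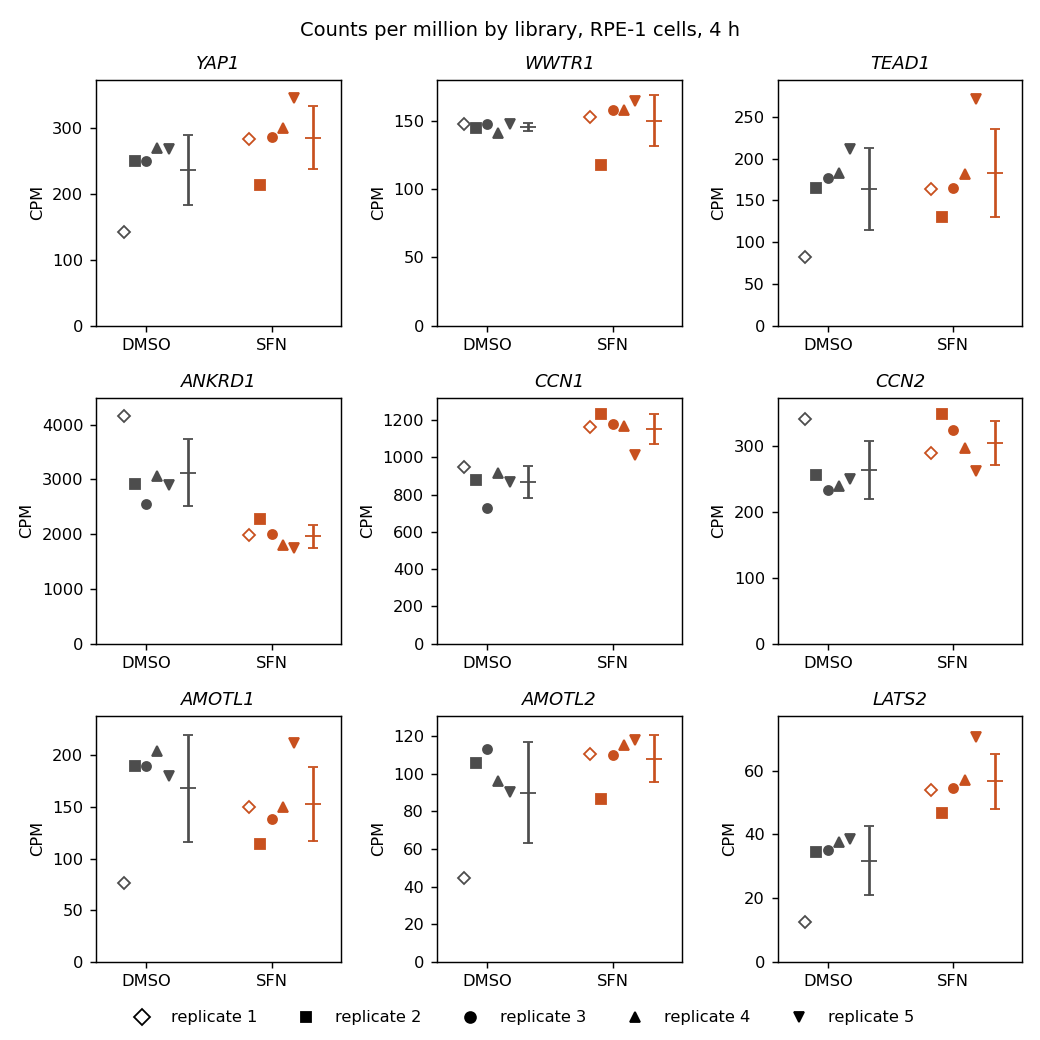
CPM (linear axes from 0) of the 9 genes in each of the 5 DMSO and 5 SFN libraries, with a marker shape for each replicate number, open diamonds for replicate 1, and a bar for the mean ± SD of each group. The SFN points of ANKRD1 all lie below the DMSO points and those of CCN1 and LATS2 all above, while the open DMSO diamond is the lowest of its group in YAP1, TEAD1, AMOTL1, AMOTL2 and LATS2.

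ANKRD1, which encodes a stretch-induced ankyrin repeat protein of the nucleus and sarcomere, lies on chromosome 10 of GRCh38 from 90912096 to 90921087 (minus strand, 9 exons in the canonical transcript). It was at 4156, 2925, 2546, 3063 and 2901 CPM in DMSO replicates 1 to 5 and at 1983, 2285, 1994, 1809 and 1746 CPM in the SFN replicates. Every SFN library was below every DMSO library, and DMSO replicate 1 was the highest of all. The mean fell from 3118 ± 611 CPM (SD, n = 5) to 1963 ± 210 CPM (SD, n = 5), a log2 fold change of -0.67 (SE 0.15, edgeR adjusted p = 0.0060). Without DMSO replicate 1 the log2 fold change of ANKRD1 was -0.55 (adjusted p = 2.8e-04 by the same test). The decrease was past the threshold in all 21 alternatives, with log2 fold changes from -0.82 to -0.55.

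CCN1 and CCN2 encode secreted matricellular proteins that bind integrins and heparan sulfate. CCN1 lies on chromosome 1 from 85580761 to 85584589 (plus strand, 5 exons). It was at 946, 880, 728, 915 and 867 CPM in DMSO and at 1163, 1231, 1179, 1167 and 1015 CPM in SFN. The SFN values were all above the DMSO values, and DMSO replicate 1 was the highest of the controls. The mean rose from 867 ± 83.9 to 1151 ± 80.8 CPM (SD, n = 5 each), with a log2 fold change of 0.41 (SE 0.11, edgeR adjusted p = 0.018) and of 0.44 without DMSO replicate 1 (adjusted p = 0.0012 by the same test). The CCN1 call was lost in 3 of 21 alternatives, among them quantile normalization in limma-voom (adjusted p = 0.095) and no filter on low counts (adjusted p = 0.077), while its log2 fold change stayed between 0.28 and 0.45.

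CCN2 lies on chromosome 6 from 131948176 to 131951372 (minus strand, 5 exons). It was at 341, 256, 233, 239 and 251 CPM in DMSO and at 290, 350, 325, 298 and 263 CPM in SFN. The groups overlapped because DMSO replicate 1 was second only to SFN replicate 2. The means were 264 ± 44.1 and 305 ± 33.5 CPM (SD, n = 5 each), and the log2 fold change of 0.21 (SE 0.13, 95% interval from -0.079 to 0.49) was not past the threshold (edgeR adjusted p = 0.30). Without DMSO replicate 1 every SFN library was above every DMSO library and the CCN2 log2 fold change was 0.31 (adjusted p = 0.011 by the same test). The third CCN gene expressed here, CCN3, was at 51.5 ± 8.74 CPM in DMSO and 46.8 ± 2.13 CPM in SFN (SD, n = 5 each), with a log2 fold change of -0.14 (adjusted p = 0.50) and of -0.24 without DMSO replicate 1 (adjusted p = 0.023). Of 6 CCN genes, 3 were in the table and tested, and CCN1 alone was past the threshold, beside 23.0% of all tested genes. Without DMSO replicate 1 CCN1 and CCN2 were higher and CCN3 lower, when 46.1% of all genes were past the threshold.

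**Figure D2:**
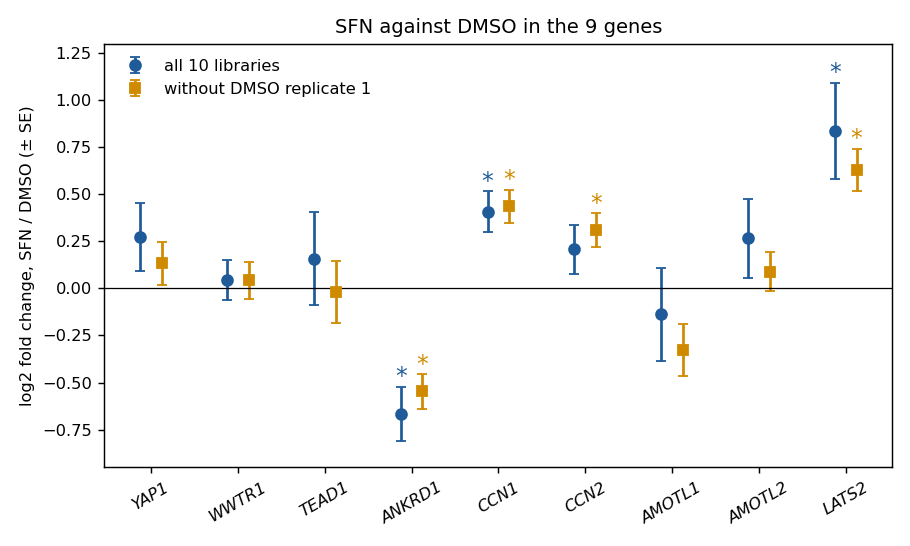
Log2 fold change of SFN against DMSO ± SE for each of the 9 genes, fitted with all 10 libraries (blue circles) and without DMSO replicate 1 (orange squares), with asterisks at an adjusted p under 0.05 by edgeR's quasi-likelihood test. Only ANKRD1 (-0.67) is called below 0, and the CCN2 call appears without DMSO replicate 1.

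YAP1 encodes YAP and lies on chromosome 11 from 102110447 to 102233424 (plus strand, 9 exons). It was at 143, 250, 249, 270 and 268 CPM in DMSO and at 283, 213, 286, 300 and 345 CPM in SFN. DMSO replicate 1 was the lowest of all and SFN replicate 2 the next, so the groups overlapped. The means were 236 ± 53.0 and 285 ± 47.6 CPM (SD, n = 5 each), with a log2 fold change of 0.27 (SE 0.18, 95% interval from -0.12 to 0.67, edgeR adjusted p = 0.33). Without DMSO replicate 1 it was 0.13 (adjusted p = 0.35 by the same test), and without that library and SFN replicate 2 together it was 0.23 (adjusted p = 0.025).

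WWTR1 encodes TAZ and lies on chromosome 3 from 149517235 to 149736714 (minus strand, 7 exons). It was at 147, 145, 148, 141 and 147 CPM in DMSO and at 153, 117, 158, 158 and 165 CPM in SFN. The controls were close together, and SFN replicate 2 alone lay below them while the other SFN libraries lay above. The means were 146 ± 2.87 and 150 ± 18.7 CPM (SD, n = 5 each), with a log2 fold change of 0.044 (SE 0.11, edgeR adjusted p = 0.82) and a 95% interval from -0.19 to 0.28.

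TEAD1 encodes a TEAD factor, the DNA-binding partner of YAP and TAZ, and lies on chromosome 11 from 12674421 to 12944737 (plus strand, 13 exons). It was at 81.9, 165, 177, 183 and 211 CPM in DMSO and at 163, 131, 165, 182 and 271 CPM in SFN. The groups overlapped widely, with DMSO replicate 1 lowest and SFN replicate 5 highest. The log2 fold change of TEAD1 was 0.16 (SE 0.25, 95% interval from -0.38 to 0.70, edgeR adjusted p = 0.71) and -0.017 without DMSO replicate 1.

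Among the TEAD factors and the VGLL proteins, some of which compete with YAP and TAZ for TEAD, 6 of 8 listed genes were in the table and tested, and 0 rose or fell with edgeR, against 3 at an unadjusted p under 0.05 and 2 past the threshold with DESeq2. TEAD4 came nearest, at 24.7, 12.2, 14.2, 11.1 and 11.8 CPM in DMSO and 7.69, 12.1, 9.53, 9.31 and 8.40 CPM in SFN. SFN replicate 2 overlapped the controls, and DMSO replicate 1 was the highest. Its log2 fold change was -0.66 (SE 0.23, adjusted p = 0.057) and -0.41 without DMSO replicate 1 (adjusted p = 0.026), and it also passed without DMSO replicate 4 (adjusted p = 0.049) or SFN replicate 2 (adjusted p = 0.045). VGLL3 had a log2 fold change of 0.45 (adjusted p = 0.088, and 0.59 without SFN replicate 2, which was past the threshold) and VGLL4, a repressor of TEAD output, 0.23 (adjusted p = 0.11). TEAD2 and TEAD3 had -0.30 and -0.19 (adjusted p = 0.17 and 0.25). The median of the 6 tested was -0.017 on the log2 scale, against -0.028 for all tested genes. Of all 13378 tested genes 23.0% were past the threshold with edgeR, and 3756 were with DESeq2.

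AMOTL1 and AMOTL2 are angiomotin-like proteins of cell junctions. AMOTL1, on chromosome 11 from 94706431 to 94876748 (plus strand, 13 exons), was at 76.4, 190, 190, 204 and 180 CPM in DMSO and at 150, 114, 138, 150 and 212 CPM in SFN. DMSO replicate 1 was the lowest library, and among the others SFN replicate 5 alone was not below the controls. The log2 fold change of AMOTL1 was -0.14 (SE 0.25, 95% interval from -0.68 to 0.40, edgeR adjusted p = 0.75) and -0.33 without DMSO replicate 1 (adjusted p = 0.066). AMOTL2, on chromosome 3 from 134355347 to 134375479 (minus strand, 10 exons), was at 44.4, 105, 113, 96.2 and 90.3 CPM in DMSO and at 111, 86.4, 110, 115 and 118 CPM in SFN. Here too DMSO replicate 1 was lowest and the groups overlapped. The log2 fold change of AMOTL2 was 0.27 (SE 0.21, 95% interval from -0.20 to 0.73, adjusted p = 0.42) and 0.090 without DMSO replicate 1. AMOT, the founding angiomotin, had a log2 fold change of -0.36 (adjusted p = 0.35) and of -0.55 without DMSO replicate 1 (adjusted p = 0.014), so that 0 of 3 angiomotins were past the threshold with all libraries (0 at an unadjusted p under 0.05 with edgeR and 0 with DESeq2) and 1 without that library. Of all tested genes 23.0% were past the threshold with all libraries and 46.1% without DMSO replicate 1. With DESeq2 and all libraries, 3756 of 13378 were past it.

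LATS2, the kinase that phosphorylates YAP and TAZ and is itself a YAP/TAZ target, lies on chromosome 13 from 20973036 to 21061586 (minus strand, 8 exons). It was at 12.5, 34.4, 35.2, 37.6 and 38.7 CPM in DMSO and at 54.1, 46.7, 54.7, 57.2 and 70.7 CPM in SFN. Every SFN library was above every DMSO library, and DMSO replicate 1 lay far below the other controls. The mean rose from 31.7 ± 10.9 to 56.7 ± 8.76 CPM (SD, n = 5 each), a log2 fold change of 0.84 (SE 0.26, edgeR adjusted p = 0.034). Without DMSO replicate 1 the log2 fold change was 0.63 (adjusted p = 4.4e-04 by the same test). The LATS2 call was lost in 7 of 21 alternatives, where its adjusted p reached 0.093 and its log2 fold change lay between 0.73 and 0.88: with library size as the only scaling and when DMSO replicate 2 or 3 or SFN replicate 1, 3, 4 or 5 was left out.

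Of 26 Hippo kinases and scaffolds 24 were tested, and 2 rose (LATS2 and STK3) and 1 fell (FRMD6). This stands beside 23.0% of all tested genes past the threshold. The list's median log2 fold change was -0.11. STK3, the kinase MST2, went from 40.7 ± 2.33 to 50.3 ± 4.06 CPM (SD, n = 5 each) without overlap between the groups, with a log2 fold change of 0.30 (edgeR adjusted p = 0.042), a call kept in 8 of 21 alternatives and lost when any of DMSO replicates 2 to 5 or SFN replicates 1 to 4 was left out (adjusted p up to 0.19 over all alternatives). FRMD6, a FERM-domain protein upstream of the kinases, fell from 305 ± 62.0 to 195 ± 21.7 CPM (log2 fold change -0.64, SE 0.16, adjusted p = 0.012) and was past the threshold in all 21 alternatives. The FRMD6 groups overlapped only through DMSO replicate 1, at 198 CPM against 311 to 352 CPM in the other controls. LATS1, STK4, NF2 (merlin) and SAV1 were not past the threshold, with log2 fold changes of 0.18, -0.050, 0.032 and 0.13. Leaving out DMSO replicate 1 gave 3 higher and 10 lower genes in this list, in a fit that called 22.5% of all genes higher and 23.5% lower.

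STRIPAK, a phosphatase complex that inactivates MST1 and MST2, and the Ajuba family of LIM proteins, which bind and inhibit LATS kinases, held 19 tested genes, of which 3 rose and 3 fell, beside 23.0% of all tested genes past the threshold. AJUBA itself fell from 86.1 ± 14.2 to 32.3 ± 3.57 CPM (SD, n = 5 each) without overlap, with a log2 fold change of -1.42 (SE 0.14, edgeR adjusted p = 2.7e-05). LIMD1, of the same family, fell with a log2 fold change of -0.47 (adjusted p = 0.0052), a call lost when an offset for transcript length was fitted in each library (-0.33, adjusted p = 0.22), while WTIP, the third, rose by 0.50 (adjusted p = 0.047). The WTIP call was kept in 8 of 21 alternatives and lost when any of DMSO replicates 2 to 5 or SFN replicates 1 to 4 was left out (adjusted p up to 0.11 over all alternatives). The STRIPAK component MOB4 rose by 0.71 on the log2 scale (edgeR adjusted p = 0.014), and by 0.91 without DMSO replicate 1. The MOB4 groups overlapped only through DMSO replicate 1, at 51.3 CPM against 25.4 to 31.6 CPM in the other controls. PPP2R1A, named after its value was seen, was the remaining gene that rose. The list had a median of 0.072 on the log2 scale (-0.017 with library size only), and 7 of its genes were higher and 5 lower without DMSO replicate 1, when 46.1% of all genes were past the threshold.

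In a list of 22 genes commonly used as YAP/TAZ targets, which includes 5 of the 9 genes described here, 4 rose and 6 fell. Over all tested genes 23.0% were past the threshold (9.07% higher and 13.9% lower). Without DMSO replicate 1, 5 of the list were higher and 10 lower, when 46.1% of all genes were past the threshold. The list's median log2 fold change was -0.17 against -0.028 for all tested genes, and -0.26 without DMSO replicate 1. The largest decreases above 5 CPM were in the forkhead factor FOXF2, from 12.8 ± 2.46 to 3.57 ± 0.880 CPM (log2 fold change -1.83, edgeR adjusted p = 5.6e-05), and in FJX1, a homologue of Drosophila four-jointed, from 18.2 ± 3.01 to 6.62 ± 1.61 CPM (log2 fold change -1.46, adjusted p = 1.1e-04). F3, which encodes tissue factor and starts blood coagulation, fell from 454 ± 33.3 to 254 ± 13.7 CPM (log2 fold change -0.84, adjusted p = 8.4e-05). In FOXF2, FJX1 and F3 no SFN library reached any DMSO library, and all 3 were past the threshold in all 21 alternatives. GADD45A, a DNA damage and stress response gene, was at 246, 103, 110, 115 and 106 CPM in DMSO and at 227, 270, 236, 220 and 184 CPM in SFN. DMSO replicate 1 lay among the SFN libraries, far above the other controls. The log2 fold change of GADD45A was 0.74 (SE 0.24, edgeR adjusted p = 0.043), and 1.06 without DMSO replicate 1. The call was lost when any of DMSO replicates 2 to 5 or SFN replicates 1 to 4 was left out (adjusted p up to 0.10). The others past the threshold, named after their values were seen, were IGFBP3, which was higher, and NUAK2 and RBMS3, which were lower.

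Among 11 further genes described as YAP/TAZ targets, 1 rose and 3 fell, beside 23.0% of all tested genes past the threshold. The chondrogenic and progenitor cell factor SOX9 fell from 67.6 ± 4.90 to 26.4 ± 4.60 CPM (SD, n = 5 each; log2 fold change -1.36, edgeR adjusted p = 3.1e-05). ARHGAP29, which encodes a GTPase-activating protein for RhoA, fell from 342 ± 51.8 to 179 ± 33.8 CPM (log2 fold change -0.93, adjusted p = 0.0010). INHBA, a subunit of activin, fell with a log2 fold change of -0.67 (adjusted p = 0.026), but DMSO replicate 1 was at 1307 CPM against 659 to 676 CPM in the other controls, and without it the value was -0.43. The INHBA call was lost without SFN replicate 1, 3 or 4 (adjusted p up to 0.099 over all alternatives). With DMSO replicate 1 left out, 3 of the 11 genes were higher and 4 lower, when 46.1% of all genes were past the threshold.

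Actin dynamics feed both YAP/TAZ and the SRF coactivators MRTFA and MRTFB, so 13 genes of the actin cytoskeleton and of MRTF/SRF were also described. In this list 1 gene rose and 2 fell, beside 23.0% of all tested genes past the threshold. MRTFB fell from 29.8 ± 8.66 to 9.97 ± 2.44 CPM (log2 fold change -1.58, edgeR adjusted p = 7.0e-04) and MRTFA from 18.6 ± 4.34 to 9.51 ± 1.64 CPM (log2 fold change -0.97, adjusted p = 0.0034). The MRTFA groups overlapped only through DMSO replicate 1, at 11.0 CPM against 19.6 to 21.5 CPM in the other controls. FHL2, a LIM protein that SRF induces, rose from 147 ± 30.7 to 297 ± 70.1 CPM (log2 fold change 1.02, adjusted p = 0.0018). The median of the list was 0.24, against -0.028 for all tested genes, and 0.015 with quantile normalization in limma-voom, against 0.040 for all. Of its 13 log2 fold changes 10 were above 0, beside 6340 of 13378 over all tested genes. ACTB, ACTG1, TAGLN and MYL9 were not past the threshold. With DMSO replicate 1 left out, 3 genes of the list were higher and 2 lower, when 46.1% of all genes were past the threshold.

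**Figure D3:**
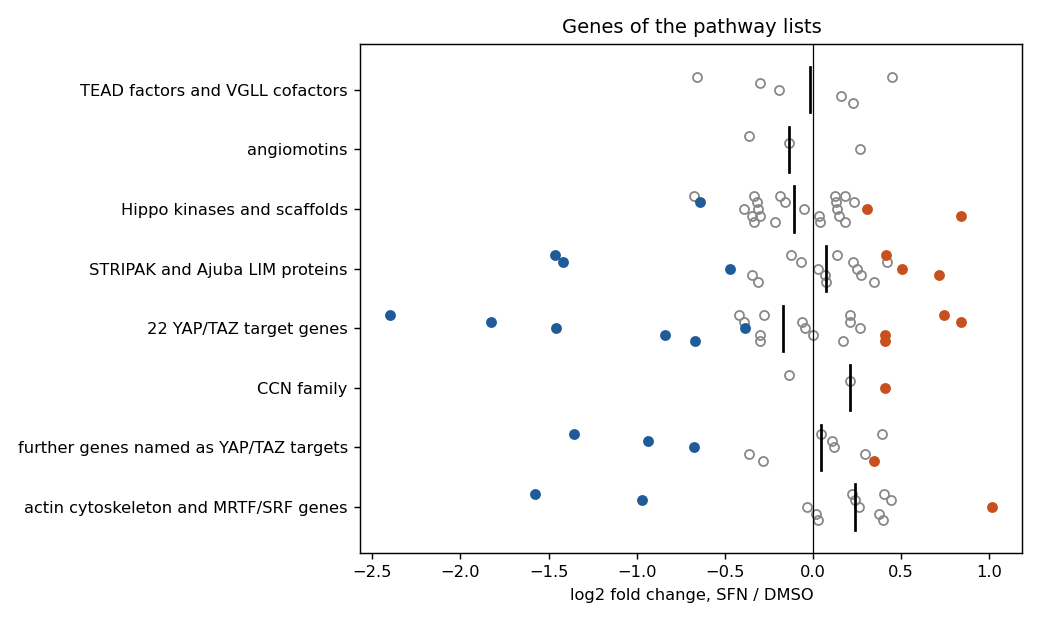
Log2 fold change of SFN against DMSO for every tested gene of 8 lists, 1 point a gene, filled orange where it rose, filled blue where it fell and open grey where the adjusted p was 0.05 or more, with a black bar at the list's median. The lists hold genes on both sides of 0, and the largest decreases are in the 22 target genes, the STRIPAK and Ajuba list and the MRTF genes; genes may be in more than 1 list.

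The ratio of the counts of 2 genes within a library does not depend on how libraries were scaled, and 8 such ratios were compared by a two-sided exact permutation test over samples, for which the smallest p is 0.00794. After Benjamini-Hochberg adjustment over the 8, 0 passed the threshold, and 4 had an unadjusted p under 0.05. The log2 ratio of LATS2 to LATS1 was 0.14, -0.12, 0.028, 0.0023 and -0.011 in DMSO and 0.65, 1.20, 0.63, 0.55 and 0.44 in SFN. All SFN values were above all DMSO values. The difference was 0.69 (exact permutation p = 0.00794, adjusted p = 0.063), which is the smallest p this design gives. Between ANKRD1 and YAP1 the log2 ratio was lower by 0.95 in SFN (exact permutation p = 0.016, adjusted p = 0.063), with DMSO replicate 1 at 4.86 and the other DMSO libraries from 3.35 to 3.55, and without DMSO replicate 1 the difference was -0.67. The ratio of AMOTL1 to AMOTL2 differed by -0.41 (exact permutation p = 0.024, adjusted p = 0.063) and that of CCN1 to CCN2 by 0.20 (exact permutation p = 0.040, adjusted p = 0.079), the latter 0.13 without DMSO replicate 1. For YAP1 to WWTR1 the difference was 0.26 (exact permutation p = 0.10, adjusted p = 0.17), and 0.084 without DMSO replicate 1. The ratios of TEAD1 to TEAD2, TEAD3 and TEAD4 differed by 0.49, 0.37 and 0.78 (exact permutation p = 0.23, 0.33 and 0.16), and by 0.29, 0.15 and 0.35 without that library.

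**Figure D4:**
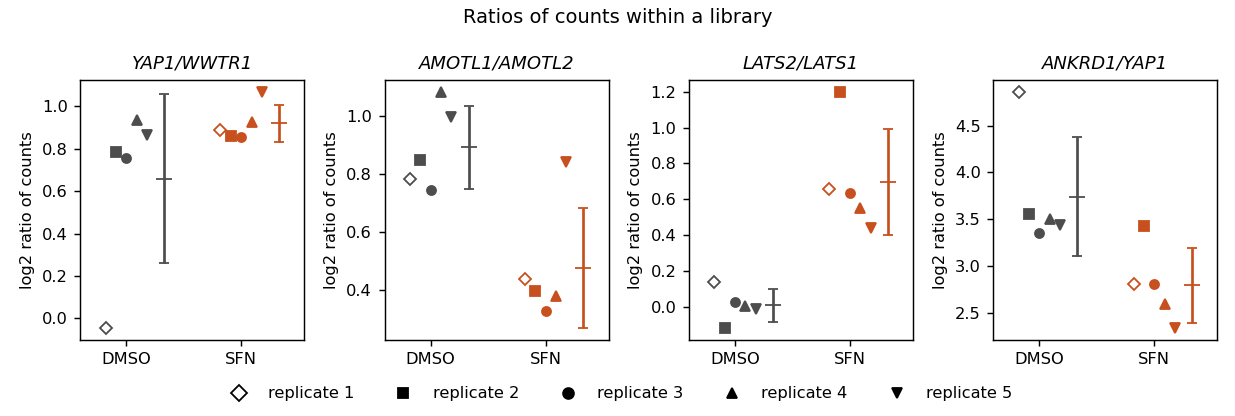
Log2 ratio of the counts of 2 genes in each library (vertical axes in log2 units, not starting at 0), with a marker shape for each replicate number and a bar for the mean ± SD of each group. The SFN values of LATS2/LATS1 (0.44 to 1.20) are all above the DMSO values (-0.12 to 0.14), and DMSO replicate 1 is apart in YAP1/WWTR1 and ANKRD1/YAP1.

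The position of DMSO replicate 1 differed with the length of the transcript. Its log2 CPM minus the mean of the other DMSO libraries had a median of 0.75 over the 3335 tested genes with canonical transcripts of 66 to 1854 bases and of -0.62 over the 3329 genes with 5092 bases or more. Among the 9 genes, ANKRD1, CCN2 and CCN1, with transcripts of 1790, 2338 and 2278 bases, deviated by 0.54, 0.48 and 0.16. The longer TEAD1, AMOTL1, LATS2 and YAP1, with 9417, 8980, 5546 and 5401 bases, deviated by -1.16, -1.32, -1.53 and -0.86, and AMOTL2 (4868 bases) by -1.18. WWTR1, with 5037 bases, deviated by 0.021. The part of transcript length in the results was not tested beyond a fit with a length offset in each library. In that fit, chosen after seeing the data, 4 of the 9 genes were past the threshold, beside 28.7% of all tested genes, with ANKRD1 at -0.72, LATS2 at 0.96, CCN1 at 0.38 and YAP1 at 0.37 (edgeR adjusted p = 7.2e-05, 0.0018, 0.0053 and 0.026).

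**Figure D5:**
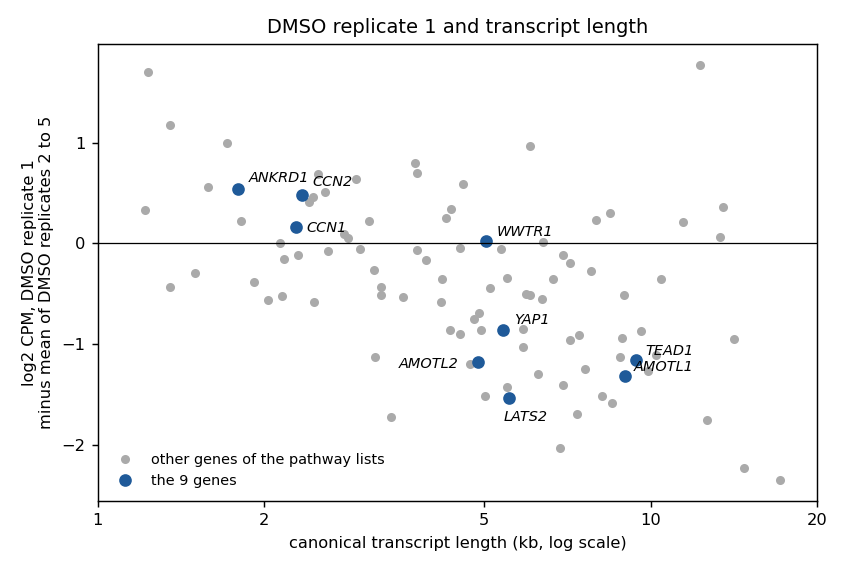
Log2 CPM of DMSO replicate 1 minus the mean of DMSO replicates 2 to 5 (vertical axis) against canonical transcript length in kb (log axis) for the 9 genes (blue, named) and the other genes of the pathway lists (grey). ANKRD1, CCN1 and CCN2 lie above 0 on the left and TEAD1, AMOTL1, LATS2, YAP1 and AMOTL2 below 0 on the right.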

How the data were processed

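RNA from 5 DMSO and 5 SFN replicates was made into Lexogen QuantSeq libraries, which read the 3′ ends of transcripts. The authors processed the reads in Bluebee's pipeline on GRCh38 (STAR and featureCounts in the submitters' processing notes) and deposited unnormalized counts for each Ensembl gene and replicate. Strand and molecular identifier settings are not given in the sources used here. The counts were tested with edgeR 4.0.16 (filterByExpr, TMM, glmQLFit, glmQLFTest) in R 4.3.3, in place of the authors' dream model with undefined repeated measures, and limma 3.58.1 and DESeq2 1.42.0 served as alternatives, beside other scalings (RLE, library size only, upper quartile), no low-count filter or one of 1 CPM in 5 samples, a replicate block, each replicate left out, and, chosen after seeing the data, a transcript length offset and leaving out DMSO replicate 1 with SFN replicate 2. Log2 fold changes are SFN over DMSO, and SE was derived as their size over the root of edgeR's F statistic.

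GENCODE 44 gave positions and held 28145 of the 28380 identifiers. Genes named were the 9, all tested TEAD, VGLL, angiomotin and CCN genes, up to 5 genes past the threshold per other list with the largest change and at least 5 CPM, and LATS1, STK3, STK4, NF2 and SAV1. Some genes that this rule names are not reported here. The members and lists were chosen with earlier results of these data known. Chi-square per degree of freedom was 3.50 to 243 between the counts of 2 replicates, so no pair agreed within sampling noise. The labels do not say whether samples with the same replicate number were paired. Deviations of same-numbered libraries correlated at 0.039, -0.27, -0.060, 0.031 and 0.48, values too few to show whether pairing was present. Genes on the opposite strand that overlap YAP1, WWTR1 and CCN2 had at most 14 counts, against at least 1362 for these 3 genes.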

Additional observations from a re-analysis of the deposited data

Results flagged for a closer look

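In a group of 5 replicates, a library was set apart where its gap to the nearest other, divided by the range of the group, was above Dixon's critical value of 0.71. Of 92 groups examined (genes and ratios named, in DMSO and in SFN), 21 had such a library, against a nominal 4.6 at 1 in 20. The groups share the same libraries and the ratios reuse counts of these genes. They are not independent, so 4.6 is not an expectation for them. DMSO replicate 1 was the library in 15 of them, SFN replicate 2 in 5 and SFN replicate 5 in 1.

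Among the 9 genes, DMSO replicate 1 lay apart in YAP1 (0.84 of the range), LATS2 (0.839) and AMOTL1 (0.812), where it was lowest, and in CCN2 (0.79), where it was highest. SFN replicate 2 was lowest and apart in WWTR1 (0.748) and AMOTL2 (0.744). Among the other genes DMSO replicate 1 was apart and low in FRMD6 (0.735), AJUBA (0.765), LATS1 (0.84) and MRTFA (0.826), and apart and high in TEAD4 (0.775), MOB4 (0.763), GADD45A (0.917) and INHBA (0.974). SFN replicate 2 was apart in VGLL3 (0.712), at its low end, and in FJX1 (0.907), at its high end.

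Of the ratios, DMSO replicate 1 was apart in YAP1/WWTR1 (0.815), TEAD1/TEAD4 (0.785) and ANKRD1/YAP1 (0.869), SFN replicate 5 in AMOTL1/AMOTL2 (0.783) and SFN replicate 2 in LATS2/LATS1 (0.718). The cause of these positions was not tested.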

How the results depend on the processing

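ANKRD1 kept its direction and its side of the threshold in all 21 alternatives. Of the 9 genes, 2 to 4 were past the threshold when single replicates were left out and 5 were with limma-voom and sample quality weights or, chosen after seeing the data, without DMSO replicate 1 and SFN replicate 2 together. By these 2 settings in order, the count past the threshold was 4 and 4 of the TEAD and VGLL genes, 2 and 1 of the angiomotins, 17 and 13 of the Hippo kinases and scaffolds, 14 and 12 of STRIPAK and Ajuba, 3 and 3 of the CCN genes, 7 and 7 of the further targets, 9 and 5 of the actin and MRTF/SRF genes, and 7915 and 6379 of all tested genes against 3076, and the first gave 18 of the 22 targets. The TEAD and VGLL genes had 1 call with library size only, 2 with DESeq2, 1 without a low-count filter and 3 with the length offset, the actin list had 5 with DESeq2, and the CCN genes had 0 with quantile normalization in limma-voom, without a low-count filter and with the replicate block. Of all 13378 tested genes, 2982 were past the threshold with library size only, 3756 with DESeq2 and 3841 with the length offset. Quantile normalization gave 2882, the replicate block 2441, and no low-count filter 2852 of 28380.

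Leaving out 1 replicate gave 0 to 2 calls for the TEAD and VGLL genes, 0 to 1 for the angiomotins, 1 to 13 for the Hippo list, 4 to 12 for STRIPAK and Ajuba, 1 to 3 for the CCN genes, 2 to 7 for the further targets, 3 to 5 for the actin list and 2383 to 6251 for all genes, the highest value in each but the TEAD and VGLL genes being without DMSO replicate 1. The Hippo list had 1 call without DMSO replicate 2 or 3 or SFN replicate 1, 3 or 4, and the further targets had 2 without SFN replicate 1, 3 or 4. The TEAD and VGLL genes had 2 without SFN replicate 2, and 1 without DMSO replicate 1 or 4. Of the 8 ratios, 0 to 4 passed: 4 without DMSO replicate 4 and 2 without SFN replicate 2 or SFN replicate 5.

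Directions reversed only in genes that were not past the threshold. WWTR1 was at -0.039 with library size only and -0.051 with quantile normalization, TEAD1 at -0.072 with quality weights and -0.028 to 0.26 with 1 replicate left out, AMOTL1 at 0.039 with the length offset, LATS1 at -0.052 with quality weights and -0.037 to 0.33 with 1 left out, STK4 at 0.055 with the length offset and -0.15 to 0.058 with 1 left out, and NF2 at -0.067 with library size only, -0.0012 with upper quartile scaling, -0.037 with quantile normalization, -0.033 with quality weights, -0.062 without both libraries and -0.061 to 0.10 with 1 left out. The cause was not tested.

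With library size only, 819 genes rose and 2163 fell (27.5% of calls higher), against 1214 and 1862 (39.5%) with TMM. With the replicate number as a block, 2 of the 9 genes and 2441 of all genes were past the threshold, CCN1 being at an edgeR adjusted p of 0.059. The labels do not say whether the numbers pair samples, and 1 of 5 SFN replicates correlated best with its own number. An exact sign-flip permutation test of the ratios by pairs cannot go below p = 0.0625. Depth limits FOXF2, with 34 to 297 counts in a library, and AMOT, with 65 to 226.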

Other observations

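The genes whose log2 CPM was most like that of ANKRD1 over the 10 libraries, among 10038 genes with a mean of at least 5 CPM, were BCAR3 (Pearson's r = 0.99), ZNF138 (r = 0.99) and LTV1 (r = 0.99). For YAP1 they were UBE2H (r = 0.99), FBXO11 (r = 0.99) and LPGAT1 (r = 0.99), and for WWTR1 they were TMEM181 (r = 0.93), BTN2A3P (r = 0.93) and TMEM87B (r = 0.90). BCAR3 and LTV1 were lower in SFN, with log2 fold changes of -0.61 and -0.63, and ZNF138 was lower too. These genes were picked from the 10038 for following ANKRD1, whose SFN libraries all lay below its DMSO libraries. A fall in SFN was therefore built into the choice, and it is no separate evidence of a shared response. All 10 points share the libraries and their scaling, DMSO replicate 1 among them, and its part in these values was not tested.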
